A study of Mus musculus with 12 samples.

Results

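Chromosome 11 of the mouse carries 8 neighbouring genes examined here: Cygb, St6galnac2, BC018473, St6galnac1, Mxra7, Jmjd6, Mettl23 and Mfsd11. They were picked by symbol from the 40481 genes of the deposited table, as neighbours in a single stretch of which some members had been seen to differ with genotype in the same direction in both cell sources. The difference between genotypes therefore chose them, and their genotype values are given as a description with no test. The stretch runs from 116645595 to 116875635 (GRCm38), which is 230 kb.

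RNA was sequenced from hematopoietic stem cells (HSCs) that were wild type (WT) or carried the inducible fusion gene ETV6-RUNX1 (iE/R in the labels), a fusion of a pair of transcription factor genes found in childhood B-cell leukemia. HSCs were sorted from E14.5 fetal livers or from the bone marrow of mice 8 weeks old, and each of the 4 combinations gave 3 libraries. All 12 libraries, WT included, came from cells kept for 3 days in a culture that expands HSCs, with 1 µg/mL doxycycline. The labels do not say which promoter drives the fusion, whether animals were pooled or which mouse strain was used, and nothing says that replicates came from separate animals, so that p-values measure the spread between these libraries, which may be technical.

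ST6GALNAC enzymes sit in the Golgi and add sialic acid to the N-acetylgalactosamine that starts a mucin-type O-glycan on serine or threonine of a glycoprotein. St6galnac1 encodes the enzyme known for making the sialyl-Tn antigen, and St6galnac2 an enzyme that prefers the longer T antigen. On blood cells, sialylated O-glycans cover proteins such as CD34, CD43 and the selectin ligand PSGL-1, where they shape binding to selectins and Siglec receptors.

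St6galnac2 (ENSMUSG00000057286) lies at 116675303 to 116694868 on the minus strand and St6galnac1 (ENSMUSG00000009588) at 116765025 to 116775507, also minus. BC018473 (ENSMUSG00000056032), at 116752167 to 116759373 on the plus strand between them, is classed as an antisense RNA in the deposited table, although its span overlaps no other gene in the GENCODE M21 annotation. Gm11735, annotated as an unprocessed pseudogene at 116739062 to 116749833 on the minus strand, lies between St6galnac2 and BC018473. It is not one of the 8 genes and is shown because its annotated transcript matched 98.0% of the 1578 coding bases of St6galnac1 and shared an identical run of 402 bases with that gene, so reads from the pair cannot always be told apart. St6galnac2 shared no identical run above 14 bases with St6galnac1 or with Gm11735, and BC018473 none above 15 bases with any of the 3. The stretch below is the 60-base window, within 1 exon of each gene, in which the 3 related sequences were most alike, with capitals at the 42 positions identical in all of them. St6galnac1 and Gm11735 were identical at 58 of the 60 positions and St6galnac2 and St6galnac1 at 42.
St6galnac2 (chr11:116678466-116678525, minus strand): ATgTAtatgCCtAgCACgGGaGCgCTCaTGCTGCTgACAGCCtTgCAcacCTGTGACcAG
St6galnac1 (chr11:116766073-116766132, minus strand): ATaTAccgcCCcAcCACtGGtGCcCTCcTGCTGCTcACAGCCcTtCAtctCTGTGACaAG
Gm11735 (chr11:116739404-116739463, minus strand): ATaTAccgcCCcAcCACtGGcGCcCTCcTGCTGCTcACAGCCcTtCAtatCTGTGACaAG

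BC018473 showed the largest differences of the group, so the start of its longest annotated transcript is also given. That transcript has 4 exons and 4753 bases, of which exon 4 holds 4081. The first 120 bases of exon 1, on the plus strand of GRCm38, are printed.
BC018473 (chr11:116752167-116752286, plus strand): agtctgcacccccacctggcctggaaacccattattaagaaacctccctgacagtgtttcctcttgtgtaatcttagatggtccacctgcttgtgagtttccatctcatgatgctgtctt

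The values are CPM, the reads of a gene per 1 M reads of its library. The libraries held between 32.3 and 64.5 M reads in total. A value resting on 3 reads or fewer was not told from 0, a limit that corresponded to 0.0465 to 0.0928 CPM by library. All 8 markers of HSCs (among them Kit, Procr and Mecom) were present, at a summed level of 1464 to 2463 CPM in WT and 2624 to 3822 CPM in ETV6-RUNX1 libraries. Ly6a had the largest gap in group means, WT first: 90.5 and 504 CPM in bone marrow, 19.0 and 880 CPM in fetal liver. Mean Kit (361 and 318 CPM) and Slamf1 (74.0 and 66.1 CPM) were lower in ETV6-RUNX1 bone marrow. Every other HSC marker mean was higher in ETV6-RUNX1. Of the markers of other cells, no B cell marker reached a group mean of 1 CPM. The 4 T cell markers summed to 0.557 to 2.29 CPM by library, with Cd3e at 0 throughout and Cd4 at 0.526 to 2.29 CPM. The 4 hepatocyte markers summed to 15.1 to 36.8 CPM, nearly all of it Afp (13.0 to 36.5 CPM in every library), with Apoa1 at up to 2.08 CPM and Alb and Ttr at no more than 0.360 CPM. The summed megakaryocyte markers (Pf4, Itga2b, Gp9, Ppbp) were 2878 to 4331 CPM in WT and 6618 to 6988 CPM in ETV6-RUNX1 fetal liver, and 1156 to 1606 against 319 to 1886 CPM in bone marrow. Pf4, the largest part of the fetal liver sum, rose (means of 2472 in WT and 4816 CPM in ETV6-RUNX1), as did Itga2b and Ppbp. Gp9 went the other way there (387 and 213 CPM). Mean Gp9, Pf4 and Itga2b were lower and Ppbp higher in ETV6-RUNX1 bone marrow. The summed monocyte and macrophage markers were 40.1 to 47.5 against 113 to 120 CPM in fetal liver and 34.6 to 55.8 against 82.5 to 106 CPM in bone marrow, with Marco at or near 0 throughout. Endothelial markers were 88.9 to 112 against 159 to 190 CPM, and erythroid markers 649 to 909 against 1256 to 1985 CPM, in WT and ETV6-RUNX1 fetal liver, and both sums overlapped between the genotypes in bone marrow. Most of these fetal liver sums came from Pecam1 (means of 69.7 in WT and 141 CPM in ETV6-RUNX1) and Hbb-bt (815 and 1611 CPM). Cdh5 (6.36 and 15.5 CPM) and Hba-a1 (0.0351 and 14.9 CPM) were among those that also rose there. Emcn (18.7 and 12.9 CPM), Kdr (6.79 and 6.32 CPM) and Klf1 (0.654 and 0.175 CPM) were lower. Neutrophil markers summed to 1.79 to 74.4 CPM in WT and 0.217 to 0.958 CPM in ETV6-RUNX1 bone marrow, and to 19.5 to 120 against 7.61 to 13.0 CPM in fetal liver. Stromal markers (4.37 to 9.97 against 1.93 to 3.03 CPM) and mast cell and basophil markers (4.92 to 9.21 against 2.98 to 4.09 CPM) were also lower in ETV6-RUNX1 fetal liver without overlap, and both overlapped in bone marrow. The stromal fall was mostly Pdgfrb (means of 5.38 in WT and 0.229 CPM in ETV6-RUNX1 fetal liver), with Col1a2 at 0.735 and 0.584 CPM. Cxcl12 (0 and 1.34 CPM) and Col1a1 (0.139 and 0.210 CPM) were higher. Cpa3 (7.13 and 3.65 CPM) made most of the mast cell and basophil sum, with Tpsb2 and Prss34 at or near 0 throughout. The part of these cell types in the differences below was not tested, and fewer cells of a type cannot be told apart from less RNA per cell.

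St6galnac2 was close to silent in WT cells and well expressed in ETV6-RUNX1 cells of both sources. In bone marrow the WT libraries held 1.03, 1.21 and 0.847 CPM (replicates 1 to 3) and the ETV6-RUNX1 libraries 71.3, 89.5 and 65.8 CPM. In fetal liver the WT libraries held 0.368, 0.201 and 0.357 CPM and the ETV6-RUNX1 libraries 41.6, 48.2 and 56.6 CPM. The genotypes did not overlap in either source, and the lowest ETV6-RUNX1 library, in fetal liver, was still far above the highest WT library, in bone marrow. The means were 75.5 ± 12.4 against 1.03 ± 0.180 CPM in bone marrow (SD, n = 3), a ratio of 73.5, and 48.8 ± 7.48 against 0.308 ± 0.0933 CPM in fetal liver, a ratio of 158. On the scale of log2(CPM + 1), which understates the change of low genes, the differences were 5.23 in bone marrow and 5.24 in fetal liver. These were the second largest increase among the 14271 genes tested in bone marrow and number 46 in fetal liver. The 3' end of St6galnac2 shares 497 exon bases with 1810032O08Rik on the opposite strand, and whether reads were counted by strand is not given in the sources used here. Another GENCODE M21 gene, also named St6galnac2 and on the same strand, overlaps its span by 3808 bases and shares 383 exon bases. Strand cannot tell the reads of these shared bases apart. 1810032O08Rik stood at 17.98 to 32.3 CPM in group means, and St6galnac2 at no more than 1.21 CPM in any WT library.

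St6galnac1 had no read in any of the 6 WT libraries. In ETV6-RUNX1 bone marrow it was at 1.76, 5.87 and 1.08 CPM (65, 190 and 35 reads), and in ETV6-RUNX1 fetal liver at 1.43, 1.38 and 1.56 CPM (68, 77 and 52 reads). Replicate 2 of bone marrow stood above the rest, and the 3 fetal liver libraries lay close together. The log2(CPM + 1) difference was 1.77 in bone marrow, or 1.26 without replicate 2, and 1.30 in fetal liver. Set against the level that 3 reads over the 3 WT libraries of a source would give, the reads pooled over the ETV6-RUNX1 libraries were at least 137-fold higher in bone marrow and at least 81.9-fold higher in fetal liver. The bone marrow bound was 69.2-fold without ETV6-RUNX1 replicate 2, and 86.98-fold and 88.1-fold without WT replicates 1 and 2. The fetal liver bound was 53.2-fold and 50.95-fold without WT replicates 2 and 3. Per kilobase of exon, ETV6-RUNX1 bone marrow held 1.21 ± 1.08 CPM of St6galnac1 and 13.0 ± 2.15 CPM of St6galnac2, and fetal liver 0.609 ± 0.0384 and 8.43 ± 1.29 CPM (SD, n = 3).

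Gm11735, which was picked after its values were seen, was listed at 0.405, 2.504 and 0.619 CPM in ETV6-RUNX1 bone marrow and 0.504, 0.700 and 1.41 CPM in ETV6-RUNX1 fetal liver. In WT it had no read in bone marrow and 1 read in fetal liver. The pooled ETV6-RUNX1 reads in bone marrow were at least 54.8-fold above the 3-read level, a bound of 24.2-fold without ETV6-RUNX1 replicate 2 and of 34.8-fold and 35.2-fold without WT replicates 1 and 2. In fetal liver the ratio of reads, corrected for depth, was 137 (95% exact interval 24.1 to 5470, which like all such intervals here covers counting error only), or 89.2 (15.7 to 3553) without WT replicate 2. Without WT replicate 3, which held the 1 read, the bound was at least 28.5-fold. Gm11735 did not pass the filter for testing. Given its likeness to St6galnac1 in the sequences above, the split of reads between these genes is uncertain.

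BC018473 had the highest level of the 8 genes in ETV6-RUNX1 cells and less than 1 CPM in every WT library. In bone marrow the WT libraries held 0.210, 0.428 and 0.698 CPM and the ETV6-RUNX1 libraries 403, 709 and 342 CPM. In fetal liver the WT libraries held 0.238, 0.870 and 0.155 CPM and the ETV6-RUNX1 libraries 229, 203 and 324 CPM. No library of one genotype came near the other genotype, and ETV6-RUNX1 bone marrow replicate 2 was again the highest. The means were 485 ± 197 against 0.445 ± 0.244 CPM in bone marrow (SD, n = 3), a ratio of 1089, and 252 ± 63.7 against 0.421 ± 0.391 CPM in fetal liver, a ratio of 598, which rose to 1283 without WT fetal liver replicate 2. In log2(CPM + 1) the differences were 8.33 and 7.48, the largest increase of all 14271 genes in bone marrow and number 4 in fetal liver. Ranked by mean CPM among all genes of the table, BC018473 stood at number 14700 in WT bone marrow and number 267 in ETV6-RUNX1 bone marrow. The corresponding ranks in fetal liver were 14615 and 692. Per kilobase of exon it held 88.6 ± 35.9 CPM in ETV6-RUNX1 bone marrow and 46.1 ± 11.6 CPM in fetal liver, above St6galnac2 in both sources.

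Taking the smaller of the differences in the 2 sources, BC018473 (7.48) and St6galnac2 (5.23) ranked first and second among all genes that were tested. The next named genes were Ifit3 (4.25), Ltb (3.91), Apol9b (3.75), Gbp4 (3.65) and Ifit3b (3.61), all on other chromosomes. Ifit3, an interferon-induced gene, differed by 8.21 in fetal liver and 4.25 in bone marrow, and St6galnac2 by 5.24 and 5.23. Whether any of these effects differs between the sources was not tested.

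**Figure D1:**
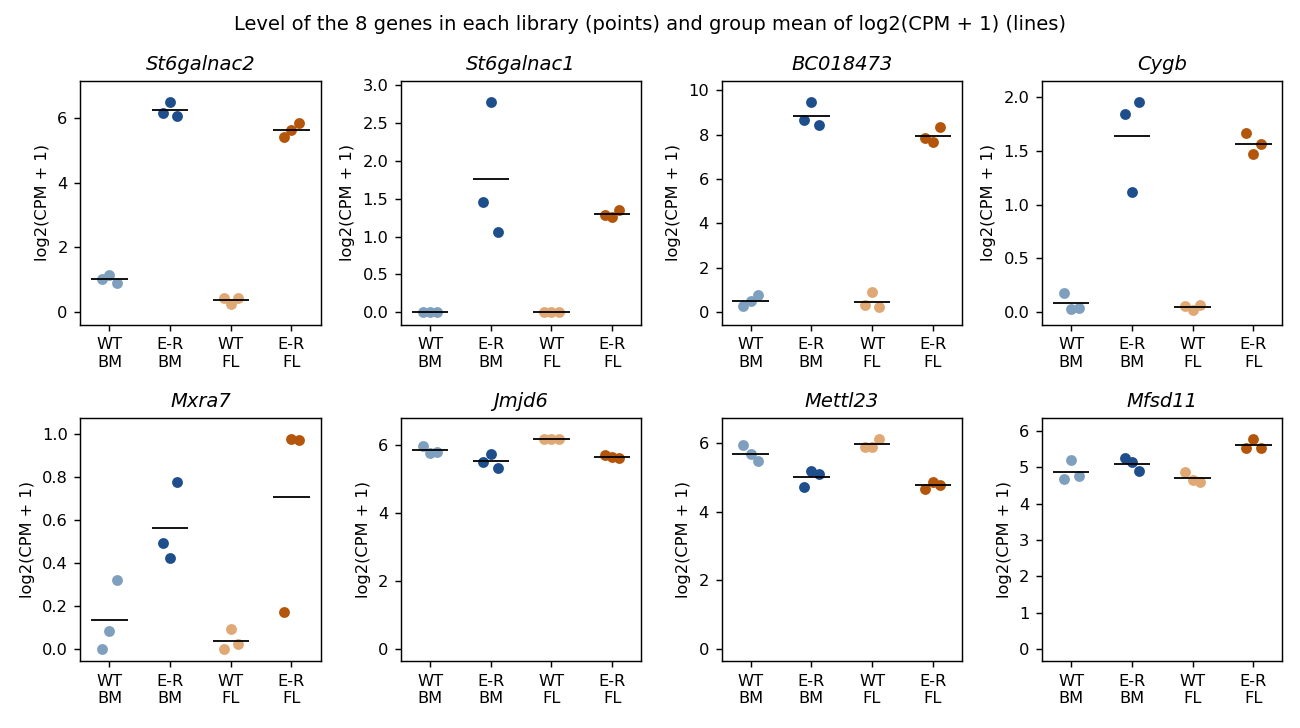
Level of each of the 8 genes as log2(CPM + 1) on a linear axis from 0, with 1 point per library and a line at the group mean, for WT and ETV6-RUNX1 (E-R) cells of bone marrow (BM) and fetal liver (FL). St6galnac2, St6galnac1, BC018473 and Cygb are near 0 in all 6 WT libraries and higher in all 6 ETV6-RUNX1 libraries, Jmjd6 and Mettl23 are lower in ETV6-RUNX1, and the bone marrow groups of Mfsd11 overlap.

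Cygb (ENSMUSG00000020810, 116645595 to 116654313, minus strand) encodes cytoglobin, a globin of many tissues that binds oxygen and handles nitric oxide. It was at 0.133, 0.0195 and 0.0249 CPM in WT bone marrow and at 2.59, 1.17 and 2.88 CPM in ETV6-RUNX1 bone marrow. In WT fetal liver it was at 0.0432, 0.0167 and 0.0465 CPM, which is 3 reads or fewer in each library, and in ETV6-RUNX1 fetal liver at 2.18, 1.78 and 1.95 CPM. The genotypes did not overlap in either source, and in bone marrow replicate 2, the highest for BC018473 and St6galnac1, was the lowest for Cygb. With 227 against 9 reads in bone marrow and 268 against 6 in fetal liver, the ratios corrected for depth were 35.7 (95% exact interval 18.5 to 79.1) and 55.7 (25.3 to 153). WT bone marrow replicate 1 held 7 of the 9 WT reads, and without it the ratio was 102 (27.9 to 848). The differences in log2(CPM + 1) were 1.56 and 1.52. Cygb shares 201 exon bases with Prcd on the opposite strand. Prcd, also looked up after its values were seen, was under 1 CPM in every library, and its genotypes overlapped in both sources.

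Mxra7 (ENSMUSG00000020814, 116803062 to 116828046, minus strand), a membrane protein first named for its association with matrix remodelling, was barely detected. It held 0, 0.0584 and 0.249 CPM in WT and 0.405, 0.340 and 0.712 CPM in ETV6-RUNX1 bone marrow. In fetal liver it held 0, 0.0669 and 0.0155 CPM in WT and 0.126, 0.970 and 0.960 CPM in ETV6-RUNX1. The ETV6-RUNX1 libraries lay above the WT libraries in both sources, but replicate 1 of ETV6-RUNX1 fetal liver held only 6 reads. The ratios corrected for depth were 5.34 (95% exact interval 2.85 to 10.7, 49 against 13 reads) in bone marrow and 23.0 (9.49 to 72.4, 92 against 5 reads) in fetal liver. In bone marrow the ratio was 16.7 (5.38 to 83.7) without WT replicate 3, which held 10 of the 13 WT reads, and 3.39 (1.81 to 6.81) without WT replicate 1. In fetal liver it was 74.6 (13.1 to 2977) without WT replicate 2, which held 4 of the 5. Mxra7 failed the filter of at least 1 CPM in at least 3 libraries, the other 7 genes passed it, and BC018473, St6galnac2, St6galnac1 and Cygb passed it only through their ETV6-RUNX1 libraries.

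Jmjd6, Mettl23 and Mfsd11 form the right end of the stretch and were expressed in every library. Jmjd6 (ENSMUSG00000056962, 116837432 to 116843449, minus strand) encodes an iron-dependent oxygenase that hydroxylates lysines of splicing factors. It stood at 61.3, 52.8 and 54.4 CPM in WT and 44.2, 52.1 and 38.6 CPM in ETV6-RUNX1 bone marrow, and at 71.0, 71.1 and 70.9 CPM in WT and 50.9, 48.4 and 47.3 CPM in ETV6-RUNX1 fetal liver. The ETV6-RUNX1 libraries were below the WT libraries in both sources, by a narrow margin in bone marrow. The means were 45.0 ± 6.78 against 56.2 ± 4.52 CPM in bone marrow and 48.9 ± 1.84 against 71.0 ± 0.0968 CPM in fetal liver (SD, n = 3), with differences of -0.32 and -0.53 in log2(CPM + 1).

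Mettl23 (ENSMUSG00000090266, 116843278 to 116854263, plus strand) encodes a methyltransferase-like protein and starts head to head with Jmjd6. It stood at 60.3, 49.95 and 43.4 CPM in WT and 25.3, 35.3 and 33.2 CPM in ETV6-RUNX1 bone marrow. In fetal liver it stood at 58.6, 58.5 and 68.9 CPM in WT and 24.4, 28.0 and 26.5 CPM in ETV6-RUNX1. The groups did not overlap, and the gap was wider in fetal liver. The means were 31.3 ± 5.30 against 51.2 ± 8.50 CPM in bone marrow, a difference of -0.70 in log2(CPM + 1), and 26.3 ± 1.84 against 61.99 ± 5.94 CPM in fetal liver, a difference of -1.20. Mettl23 shares exon bases with 3 genes: 172 with Jmjd6 and 460 with Srsf2, both on the opposite strand, and 257 with Mfsd11 on its own strand.

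Mfsd11 (ENSMUSG00000020818, 116852440 to 116875635, plus strand) is a member of the major facilitator superfamily of membrane transporters. It stood at 24.5, 35.6 and 26.4 CPM in WT and 37.6, 34.4 and 29.0 CPM in ETV6-RUNX1 bone marrow, and at 28.4, 24.4 and 23.2 CPM in WT and 45.7, 54.4 and 45.1 CPM in ETV6-RUNX1 fetal liver. The genotypes overlapped in bone marrow and were apart in fetal liver. The differences in log2(CPM + 1) were 0.23 and 0.91, for means of 33.7 ± 4.36 against 28.9 ± 5.95 CPM and 48.4 ± 5.21 against 25.3 ± 2.75 CPM (SD, n = 3).

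Counted over the 8 genes, ETV6-RUNX1 libraries lay above WT without overlap for 6 and below for 2 in fetal liver. In bone marrow 5 lay above, 2 below and 1 overlapped. Over all 14271 genes tested, 32.3% lay above and 23.3% below without overlap in fetal liver, and 23.6% above and 10.9% below in bone marrow. Since genotype chose the genes, these counts describe the choice.

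Promoter sequences of RefSeq (GRCm38.p6), from 250 bases before to 50 bases after a gene start, were at hand for 4 of the 8 genes: Mxra7, Jmjd6, Mettl23 and Mfsd11. The letters TGTGGT and the letters TGCGGT, both cores bound by RUNX factors, and the letters CGGAAG, a core bound by ETS factors, were searched on both strands, and no match overlapped a match of another motif. TGTGGT was found once upstream of Mxra7, and 16.8% of the 32851 promoters of the table hold it. TGCGGT was found at 2 places in the Jmjd6 window and at 2 in the Mettl23 window, which overlap each other and share both places, against 6.45% of all promoters. CGGAAG was found at 2 places in the Jmjd6 window and at 1 in that of Mettl23, against 16.9% of all promoters. The Mettl23 place is 1 of the same 2 places. None of the 3 was present in the 2 windows of Mfsd11. A match describes letters in a window and shows no binding.

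Fetal liver and bone marrow were compared within each genotype by limma on log2(CPM + 1), with Benjamini-Hochberg adjustment over all 14271 genes and a threshold of 0.05. This contrast did not choose the genes. In WT cells 1 of the 7 genes tested passed, St6galnac2, and 11.1% of all genes did. St6galnac2 was lower in fetal liver than in bone marrow, at 0.308 ± 0.0933 against 1.03 ± 0.180 CPM (SD, n = 3), with no overlap, a difference of -0.63 (SE 0.19, limma adjusted p 0.0405). The call was past the threshold in 11 of 21 alternatives (adjusted p from 2.55e-06 to 0.160) and was lost in 10, among them the replicate block (adjusted p 0.0668), quantile scaling (0.0575) and the fit without a gene filter (0.0659). It was also lost without WT fetal liver replicate 1, 2 or 3 (limma adjusted p 0.0737, 0.130 and 0.0987), WT bone marrow replicate 2 or 3 (0.160 and 0.0584), ETV6-RUNX1 bone marrow replicate 1 (0.0537) or ETV6-RUNX1 fetal liver replicate 2 (0.0529). The other genes did not pass in WT: Jmjd6 (0.34, limma adjusted p 0.129), Mettl23 (0.28, 0.312), Mfsd11 (-0.17, 0.572), BC018473 (-0.04, 0.942) and Cygb (-0.03, 0.946). St6galnac1 was at 0 in all 6 WT libraries and gives no comparison.

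In ETV6-RUNX1 cells 3 of the 7 genes passed, where 28.6% of all genes did. St6galnac2 was lower in fetal liver (48.8 ± 7.48 against 75.5 ± 12.4 CPM, difference -0.62, SE 0.19, limma adjusted p 0.0224), with no overlap between the libraries. BC018473 was lower as well (252 ± 63.7 against 485 ± 197 CPM, difference -0.90, SE 0.28, limma adjusted p 0.0253), also without overlap, its lowest bone marrow library at 342 and its highest fetal liver library at 324 CPM. Mfsd11 was higher in fetal liver (48.4 ± 5.21 against 33.7 ± 4.36 CPM, difference 0.51, SE 0.17, limma adjusted p 0.0357). St6galnac1 (-0.47, limma adjusted p 0.286), Jmjd6 (0.13, 0.507), Mettl23 (-0.23, 0.319) and Cygb (-0.07, 0.828) did not pass.

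Each of the 3 calls in ETV6-RUNX1 cells was lost in some of the 21 alternatives, St6galnac2 in 7, BC018473 in 8 and Mfsd11 in 5. Without ETV6-RUNX1 bone marrow replicate 2, BC018473 gave -0.59 (limma adjusted p 0.114), over 1.5 times smaller, St6galnac2 gave -0.49 (0.0833) and Mfsd11 0.53 (0.0600). Without fetal liver replicate 1 the adjusted p was 0.104 for St6galnac2, 0.0843 for BC018473 and 0.0683 for Mfsd11, and without fetal liver replicate 2 the adjusted p was 0.0570, 0.1004 and 0.126 for St6galnac2, BC018473 and Mfsd11. Without bone marrow replicate 3, Mfsd11 gave 0.41 (0.123). Scaling by the median of ratios took St6galnac2 to -0.45 (0.0882) and BC018473 to -0.73 (0.0592). DESeq2 and edgeR did not call these 2 genes either, with adjusted p of 0.0741 and 0.0942 for St6galnac2 and 0.399 and 0.158 for BC018473. A pseudocount of 0.1 gave limma adjusted p of 0.0667 and 0.157 for them, and the fit without a gene filter gave 0.0789 for BC018473 and 0.0583 for Mfsd11. Xist, which marks female cells, was at most 1.27 CPM in any bone marrow library and at least 51.7 CPM in any fetal liver library, so that source and the sex of the cells cannot be told apart.

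**Figure D2:**
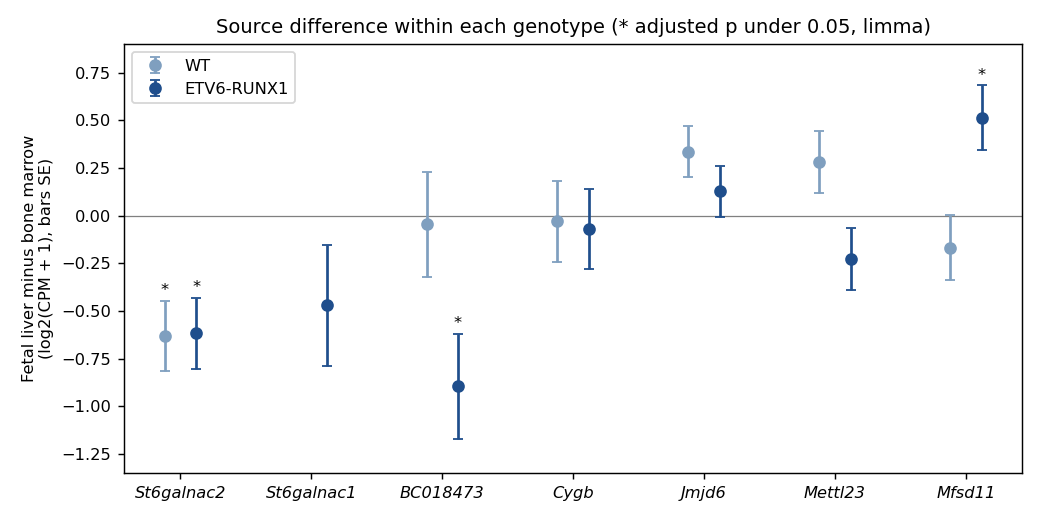
Fetal liver minus bone marrow in log2(CPM + 1) for the 7 genes that passed the filter, with bars for the SE of the limma fit, in WT and ETV6-RUNX1 cells, and a star where the adjusted p is under 0.05. St6galnac2 is lower in fetal liver in both genotypes (-0.63 and -0.62), BC018473 is lower (-0.90) and Mfsd11 higher (0.51) in ETV6-RUNX1 cells, and St6galnac1 has no WT point because it had no reads there.

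The genes around the stretch were examined up to 1 Mb on either side. Here the genotype test is given, since these genes were taken by position and not by their own values. The stretch itself was picked with genotype differences known, and Srsf2 and 1810032O08Rik inside it share exon bases with members. Of 91 such genes in the table, 50 were tested. In fetal liver 10 rose and 14 fell in ETV6-RUNX1, which is 24 of 50, beside 24.8% of all genes higher and 18.3% lower. In bone marrow 9 rose and 5 fell, beside 14.4% of all genes higher and 4.93% lower. The bone marrow split turned with the scaling: 4 rose and 10 fell with median-of-ratios scaling and with edgeR, 6 rose and 11 fell with DESeq2, and 4 rose and 8 fell with quantile scaling. Over all genes the split also moved, from 2059 higher and 704 lower as deposited to 1480 and 1313 with median-of-ratios scaling. The split over all genes was 1384 and 1355 with edgeR, 1714 and 1583 with DESeq2, and 1248 and 1324 with quantile scaling. Left out singly, ETV6-RUNX1 bone marrow replicate 1 brought the 14 calls to 8, 4 in each direction, and the calls over all genes from 2763 to 1851. The median difference of the 50 genes was 0.07 in fetal liver and 0.18 in bone marrow, beside 0.08 and 0.13 over all genes tested. Of the 50, 11 (22.0%) were called in both sources: 5 higher in both, 5 lower in both and 1 in opposite directions. Over all genes tested 13.2% were called in both, with 8.84% higher, 4.07% lower and 0.259% opposite.

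Srsf2, a splicing factor of the SR family, was the only other tested gene within the stretch besides 1810032O08Rik, and it lies on the opposite strand (116849901 to 116853094), wholly within the span of Mettl23 and with 655 bases inside that of Mfsd11. Its libraries held 195, 376 and 347 CPM in WT and 53.9, 67.3 and 51.5 CPM in ETV6-RUNX1 bone marrow. In fetal liver they held 223, 272 and 169 CPM in WT and 48.2, 52.7 and 61.99 CPM in ETV6-RUNX1. Srsf2 fell in both sources, with a difference of -2.34 in bone marrow (limma adjusted p 4.43e-05) and -1.99 in fetal liver (1.31e-05), and no library of one genotype overlapped the other. It shares 460 exon bases with Mettl23 and 288 with Mfsd11, and these 3 genes did not move alike: Srsf2 and Mettl23 were lower and Mfsd11 higher in ETV6-RUNX1. Reads of overlapping genes cannot be assigned without knowing how strand was used, and the part of this overlap in the values of Mettl23 and Mfsd11 was not tested. 1810032O08Rik, which overlaps the end of St6galnac2, rose by 0.55 in bone marrow (limma adjusted p 0.0490, past the threshold in 4 of 21 alternatives) and was 0.44 higher in fetal liver without passing (0.0675).

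Rhbdf2, which encodes an inactive rhomboid protein needed for the release of growth factors and TNF, is the nearest tested gene to the left, 18.6 kb outside the stretch. It rose in both sources, from 8.68 ± 1.35 to 24.2 ± 9.16 CPM in bone marrow (1.33, limma adjusted p 0.00286) and from 12.7 ± 3.12 to 26.2 ± 5.04 CPM in fetal liver (0.995, adjusted p 0.00516, SD, n = 3). Snhg20, the nearest tested gene to the right at a distance of 200 kb, did not pass in either source (0.35, adjusted p 0.235, and -0.33, 0.203). Farther out, differences of at least 2 in log2(CPM + 1) in both sources were seen for 3 genes, all to the left at distances of 637 to 739 kb.

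These were Itgb4, the integrin beta chain of hemidesmosomes, and Smim5 and Smim6, which encode small membrane proteins. Itgb4 rose from 4.06 ± 0.411 to 21.5 ± 3.51 CPM in bone marrow (2.15, limma adjusted p 5.36e-06) and from 4.02 ± 0.468 to 73.6 ± 4.57 CPM in fetal liver (3.89, 1.67e-09). Smim6 fell by 2.99 in bone marrow (limma adjusted p 3.29e-06), with a difference of -2.78 in fetal liver (2.39e-07). Smim5 fell by 2.42 in bone marrow (0.000290), with a difference of -2.33 in fetal liver (4.43e-05). Of the remaining neighbours that reached a difference of 1 and passed in a source, Tmc8 rose by 1.33 in fetal liver and by 0.997 in bone marrow, and 2900041M22Rik fell by 1.01 and by 0.97. Tk1 (thymidine kinase) fell by 1.05 in fetal liver and by 0.64 in bone marrow, the latter lost in 7 of 21 alternatives. Galk1 (galactokinase) fell by 1.13 and 6030468B19Rik by 1.04 in fetal liver. The levels of 6030468B19Rik there were low, at 1.49, 1.39 and 2.98 CPM in WT and 1.30, 0.180 and 0 CPM in ETV6-RUNX1. Its call was lost in 2 of 20 alternatives. Gm8624 rose by 1.03 in bone marrow, where 9 of 21 alternatives lost the call.

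**Figure D3:**
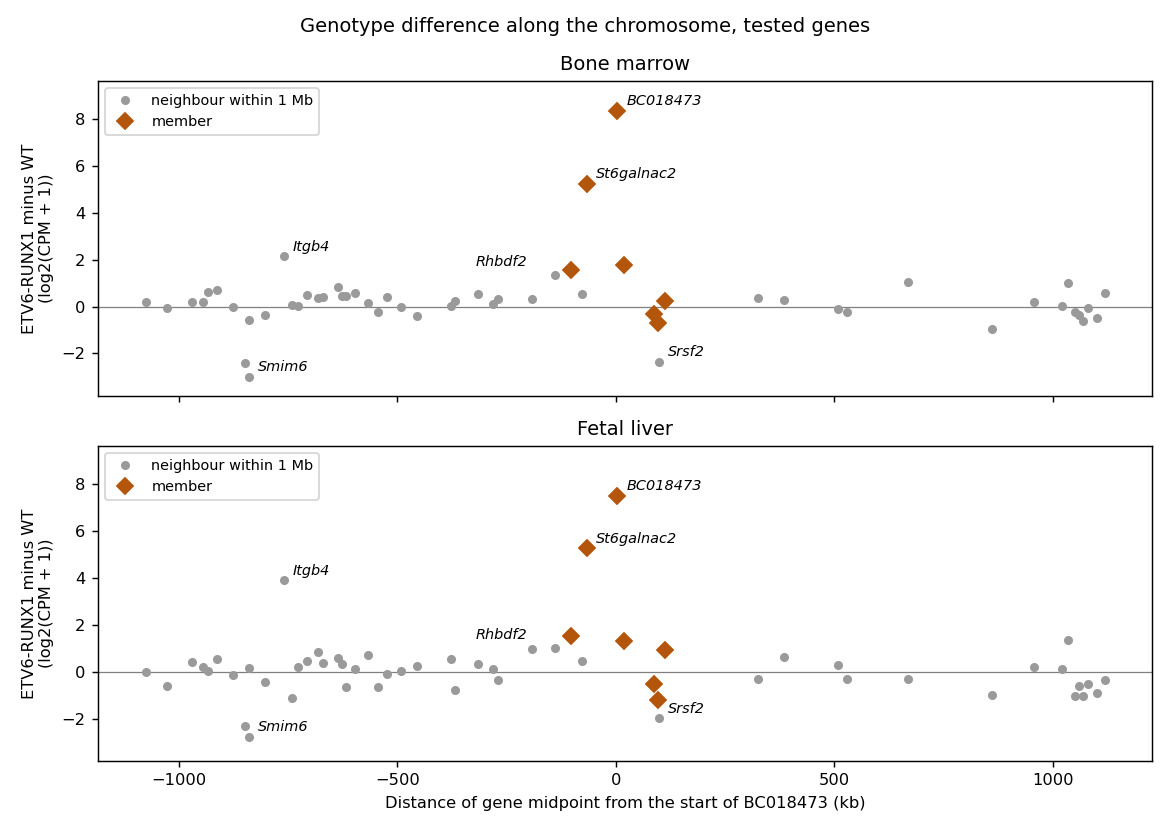
Difference of ETV6-RUNX1 minus WT in log2(CPM + 1) for every tested gene within 1 Mb of the stretch, against the distance of the gene's midpoint from the start of BC018473 in kb, for bone marrow (top) and fetal liver (bottom). Diamonds mark the 7 members that were tested and circles their 50 neighbours. BC018473 and St6galnac2 stand above all neighbours in both panels, and Srsf2 (-2.34 and -1.99) lies among the members.

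The other genes of sialic acid and O-glycan biology were taken from lists written from general knowledge. Over all genes tested 43.1% were called in fetal liver and 19.4% in bone marrow, and a list's share near these values is no result about the list. In bone marrow the calls over all genes also changed with the alternatives, so list counts under an alternative are not set against these shares. They fell from 2763 to 1601 with only the 6 libraries compared. With edgeR 1384 were higher and 1355 lower, against 2059 and 704 as deposited. Of 18 other sialyltransferases 12 were tested, and 4 rose and 1 fell in fetal liver (41.7% called), while the 2 called in bone marrow rose (16.7%, limma, adjusted over all genes), both shares near the background. The fetal liver count was 3 without ETV6-RUNX1 replicate 1 or WT replicate 2 or 3. In bone marrow 2 rose and 1 fell with DESeq2, median-of-ratios and quantile scaling, and 1 was called with edgeR, without a filter, with only the 6 libraries compared, and without ETV6-RUNX1 replicate 1 or WT replicate 1 or 2. The median difference was 0.13 in fetal liver and 0.27 in bone marrow, beside 0.08 and 0.13 over all genes. St8sia4, a polysialyltransferase, rose in both sources, from 30.4 ± 8.99 to 127 ± 6.04 CPM in fetal liver (2.06, limma adjusted p 2.13e-06) and from 27.8 ± 5.80 to 63.4 ± 6.26 CPM in bone marrow (1.18, 0.00150). St3gal1, which sialylates the T antigen, rose by 0.61 in fetal liver (limma adjusted p 0.0150, lost in 3 of 21 alternatives) and was at -0.22 in bone marrow without passing (0.421). St3gal5, the enzyme that makes the simplest ganglioside, rose by 0.63 in fetal liver (0.0110, lost in 2 of 21 alternatives). St3gal4 rose by 0.58 in bone marrow (0.0277, lost in 7 of 21 alternatives). St6galnac3, a relative of the members that acts on gangliosides and sialylated O-glycans, fell by 0.59 in fetal liver (limma adjusted p 0.0454, lost in 6 of 20 alternatives) and was at 0.03 in bone marrow (0.948). The largest difference among the tested genes of this list was thus 2.06, for St8sia4. St6galnac2 stood at 5.24, but genotype chose that gene, so setting these values side by side is a description only.

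Mucin-type O-glycan synthesis, the enzymes that make the chains on which ST6GALNAC enzymes act, had 13 of 22 genes tested. Of these 5 rose and 1 fell in fetal liver (46.2% called, near the 43.1% of all genes), or 4 and 2 with edgeR and quantile scaling and 5 and 2 with DESeq2. The 2 called in bone marrow rose (15.4%, near the 19.4% of all genes). In bone marrow 1 was called with edgeR, median-of-ratios and quantile scaling, with only the 6 libraries compared, and without ETV6-RUNX1 replicate 1 or 3 or WT replicate 1 or 2. The medians were 0.31 and 0.11, beside 0.08 and 0.13 over all genes. B3gnt3, which extends O-glycans with N-acetylglucosamine, rose from 1.33 ± 0.463 to 9.35 ± 1.96 CPM in fetal liver (2.16, limma adjusted p 1.37e-05) and from 2.87 ± 1.15 to 17.4 ± 2.05 CPM in bone marrow (2.30, 0.000102). Gcnt1, which starts a branched chain on the T antigen, rose by 1.62 in fetal liver (limma adjusted p 2.58e-05) and was at 0.01 in bone marrow (0.975). The enzymes that place the first sugar were Galnt1 and Galnt7, which rose by 0.92 and 0.76 in fetal liver (0.000742 and 0.00213), and Galnt11, which rose by 0.63 in bone marrow (0.0252, lost in 8 of 21 alternatives).

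Among 13 acceptor proteins of blood cells, all tested, 6 rose and 3 fell in fetal liver (69.2% called, beside 43.1% of all genes) and 2 rose and 2 fell in bone marrow (30.8%, beside 19.4%), with medians of 0.07 and 0.09. With DESeq2 5 rose and 4 fell in fetal liver. In bone marrow 1 rose and 3 fell with DESeq2, edgeR and median-of-ratios scaling. The 4 bone marrow calls became 1 without a filter or with only the 6 libraries compared, and 2 without ETV6-RUNX1 replicate 1 or 2 or WT replicate 2 or 3. Cd34 rose by 0.77 in fetal liver (limma adjusted p 0.000736) and by 0.46 in bone marrow (0.0384, lost in 10 of 21 alternatives). The hyaluronan receptor Cd44 rose by 1.04 in fetal liver (0.000384). Selplg, which encodes PSGL-1, rose by 0.64 in bone marrow (limma adjusted p 0.00634) and was at 0.07 in fetal liver (0.725). Podxl, the sialomucin podocalyxin, fell by 1.42 in fetal liver (0.000275) and by 0.74 in bone marrow (0.0394), and Thbd (thrombomodulin) by 1.21 (0.00552) and 1.11 (0.0213). Both bone marrow calls were lost in some alternatives, 7 of 21 for Podxl and 5 of 21 for Thbd.

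For supply and removal of sialic acid, 11 of 13 genes were tested, of which 4 rose and 1 fell in fetal liver (45.5% called, near the 43.1% of all genes) and 1 rose in bone marrow (9.09%, below the 19.4%), with medians of -0.05 and 0.03. The direction turned with quantile scaling, to 2 higher and 3 lower in fetal liver and 2 lower in bone marrow. In bone marrow 1 rose and 3 fell with median-of-ratios scaling and 1 rose and 2 fell with DESeq2 and edgeR. There 1 rose and 1 fell with a pseudocount of 0.1 and without ETV6-RUNX1 bone marrow replicate 2 or 3, ETV6-RUNX1 fetal liver replicate 3 or WT bone marrow replicate 2. Cmas, which activates sialic acid for transfer, rose by 1.09 in fetal liver (limma adjusted p 0.000132) and was at 0.26 in bone marrow (0.276). The lysosomal sialidase Neu1 rose in both sources, by 0.61 (0.00629) and 0.72 (0.00664), and the membrane sialidase Neu3 in fetal liver by 0.90 (0.00216). Nans, which makes sialic acid, fell by 0.54 in fetal liver (0.00414). Of 12 receptors of sialylated glycans only 4 were tested, and 1 rose in fetal liver (25.0% called, beside 43.1% of all genes, limma, adjusted over all genes). It was joined by 1 that fell in 9 of 21 alternatives. In bone marrow 0 of the 4 were called, beside 19.4% of all genes. The medians of the 4 were -0.19 in fetal liver and -0.13 in bone marrow.

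Of 8 partners of JMJD6, all tested, 1 rose and 2 fell in fetal liver (37.5% called, beside 43.1% of all genes) and 1 rose in bone marrow (12.5%, beside 19.4%), with medians of -0.03 and 0.16, so neither share exceeded the background. The splicing factor U2af1 fell by 0.80 in fetal liver (limma adjusted p 0.00503) and was at 0.15 in bone marrow (0.628), and its partner U2af2 fell by 0.62 in fetal liver (0.0135). The splicing regulator Luc7l2 rose by 0.60 in fetal liver (0.00319) and by 0.46 in bone marrow (0.0312, lost in 11 of 21 alternatives). Of the relatives and reductase of cytoglobin (Mb, Ngb, Adgb and Cyb5r3), Adgb and Cyb5r3 were tested. Neither passed with limma, edgeR or DESeq2, and no unadjusted p of the limma test was under 0.05. Among the alternatives, Adgb passed in fetal liver without ETV6-RUNX1 replicate 1 (0.78, limma adjusted p 0.0399) and Ngb in bone marrow without a gene filter (0.35, adjusted p 0.0371). Adgb was 0.51 higher in fetal liver (limma adjusted p 0.153) and 0.09 higher in bone marrow (0.848), and Cyb5r3 0.27 higher (0.114) and 0.06 higher (0.778).

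**Figure D4:**
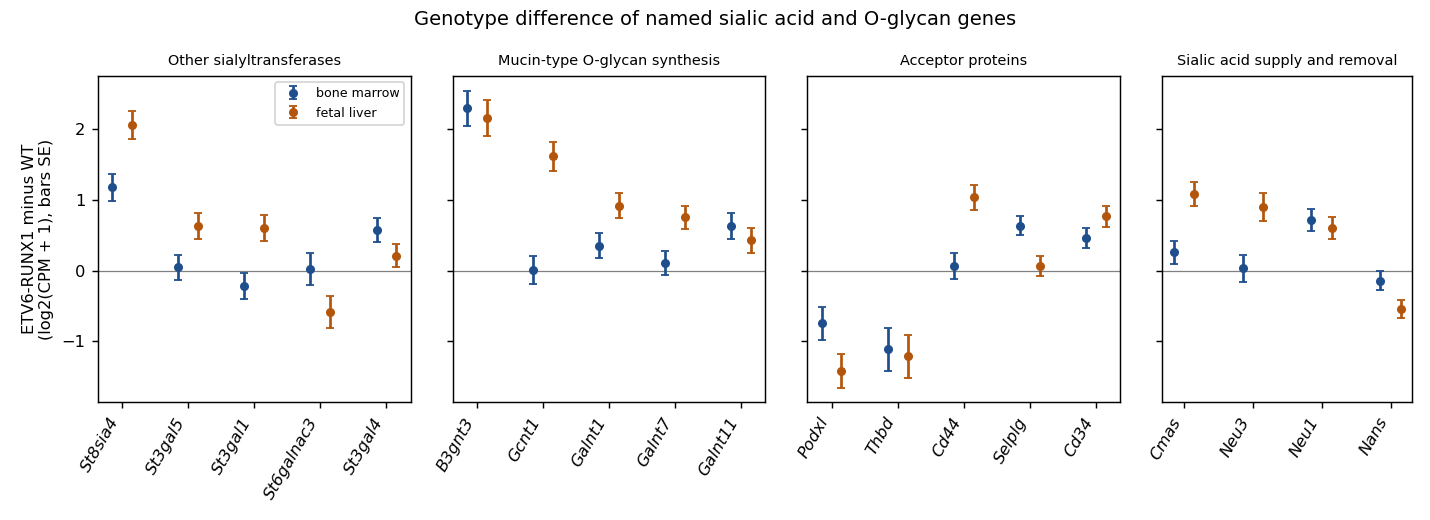
Difference of ETV6-RUNX1 minus WT in log2(CPM + 1), with bars for the SE of the limma fit, for the named sialyltransferases, O-glycan enzymes, acceptor proteins and genes of sialic acid supply and removal, in bone marrow and fetal liver. St8sia4, B3gnt3, Neu1 and Cd34 are higher and Podxl and Thbd lower in both sources, and Gcnt1 (0.01) and Cd44 (0.07) are near 0 in bone marrow and at 1.62 and 1.04 in fetal liver.

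The genes whose levels most resembled those of St6galnac2 and BC018473 over the 12 libraries were found by Pearson correlation of log2(CPM + 1) among 11738 genes. For St6galnac2 they were Ehd2 (r = 0.985), Yes1 (0.977), Gbp11 (0.975), Mapk11 (0.974) and Mvp (0.973). For BC018473 they were Aoc2 (0.984), Mapk11 (0.975), Ehd2 (0.975), Fads3 (0.972) and Mvp (0.970). The 12 points are the same libraries for every gene and fall into 2 genotypes, so r is a description and no p is given. Ehd2, the most similar to St6galnac2, had group means of 6.30 and 50.9 CPM in WT and ETV6-RUNX1 bone marrow and 3.34 and 44.6 CPM in fetal liver. Of the 7 different genes only Aoc2 is on chromosome 11.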

How the data were processed

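The authors deposited a table of CPM per gene for the 12 libraries. Per the submitters' processing notes, bcl2fastq, STAR 2.5.1a, Subread, featureCounts 1.4.6-p5, Salmon 0.8.2, edgeR, limma and GRCm38 were used, with no roles given. Strand use and annotation release are not given in the sources used here. Libraries were made with a stranded total RNA kit, per the labels' protocols. All 100% of values were whole multiples of a step (within 0.05 of a read), which gave back whole reads. Of 40757 rows 276 repeated an ID.

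The 14271 genes that reached 1 CPM in 3 or more libraries were tested by limma 3.58.1 (R 4.3.3) on log2(CPM + 1), with 4 group means, 8 residual degrees of freedom and a mean-variance trend, two-sided. The test was also run on simulated data, with far fewer changed genes than were called here and the same spread setting for every gene. That run therefore does not show how the test performs on these data. Members and lists were chosen with earlier results of these data known. Neighbours were named if called with a difference of at least 1, nearest or inside the stretch, and list genes if among the 4 largest calls. The 5 genes most correlated with St6galnac2 and with BC018473, and the 5 others with the largest smaller difference (unnamed gene models left out), were also named. The values of 2 list genes that met this rule are not reported here. Alternatives were pseudocount 0.1, no filter, a mean of at least 5 CPM, median-of-ratios and quantile scaling, a replicate block, only the 6 libraries compared, edgeR 4.0.16 and DESeq2 1.42.0 on the recovered reads, and leaving out each library. Positions and transcripts are from GENCODE M21. Transcripts were aligned with Biopython 1.88.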

Additional observations from a re-analysis of the deposited data

Results flagged for a closer look

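U2af2, a splicing factor hydroxylated by JMJD6, lay below WT in fetal liver and above WT in bone marrow in ETV6-RUNX1 libraries. In fetal liver it was lower in all 3 ETV6-RUNX1 than in all 3 WT libraries, at 23.2 ± 3.71 against 36.1 ± 2.89 CPM (SD, n = 3), a log2(CPM + 1) difference of -0.62 (limma adjusted p 0.0135, lost in 3 of 21 alternatives). In bone marrow every ETV6-RUNX1 library exceeded every WT library, at 35.4 ± 9.01 against 27.5 ± 3.17 CPM, a difference of 0.33 that did not pass (limma adjusted p 0.219). Over all genes tested, 23.3% lay below without overlap in fetal liver and 23.6% above in bone marrow. The median difference over all genes in bone marrow was 0.13, or 0.01 with median-of-ratios scaling. The difference of U2af2 between the sources was not tested.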

How the results depend on the processing

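All genotype differences of the 7 members tested kept their direction in every alternative that gave a value (20 or 21 each). Genotype chose these genes, so the kept direction describes the choice. The values ran from 7.29 to 9.16 for BC018473 and from 5.12 to 7.23 for St6galnac2 in fetal liver, and from 8.02 to 9.98 and from 5.09 to 6.07 in bone marrow. In bone marrow Mfsd11 ran from 0.026, which is close to no difference, to 0.38, and St6galnac1 from 1.26 to 9.91. The number of genes called between genotypes in bone marrow fell from 2763 to 1601 with only the 6 libraries compared and ran from 1520 (without ETV6-RUNX1 replicate 2) to 2924 when a library was left out. The number called between sources in WT (1591) ran from 868 (without WT bone marrow replicate 2), with 904 without WT fetal liver replicate 3, to 2781 (without WT bone marrow replicate 1). The 14 neighbours called in bone marrow became 9 with only the 6 libraries compared, and between 8 (without ETV6-RUNX1 bone marrow replicate 1) and 15 when a library was left out. 

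The share of higher genes among the calls depended on scaling: in bone marrow 74.5% were higher as deposited, 53.0% with median-of-ratios, 48.5% with quantile scaling, 50.5% with edgeR and 52.0% with DESeq2. In fetal liver it was 57.6% as deposited and 42.0% with quantile scaling. Median-of-ratios scaling moved the median difference over all genes from 0.13 to 0.01 in bone marrow, and from -0.16 to -0.01 between sources in ETV6-RUNX1, and quantile scaling moved it from 0.08 to -0.10 in fetal liver. The source difference of some members changed sign. For Cygb it was 0.037 with median-of-ratios and 0.058 with quantile scaling in ETV6-RUNX1, and it ran from -0.33 to 0.085 there and from -0.058 to 0.019 in WT when a library was left out. For BC018473 in WT it was 0.033 with DESeq2, 0.084 with edgeR and 0.035 with quantile scaling, and ran from -0.26 to 0.088 when a library was left out. For St6galnac1 in ETV6-RUNX1 it ran from -0.83 to 0.036 when a library was left out. None of these passed the threshold, and the cause was not tested.

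Same-numbered libraries showed no steady likeness: correlations of their deviations from the group means ran from -0.44 to 0.22. Between genotypes in fetal liver they were 0.16, -0.08 and 0.22 for replicates 1 to 3. The highest correlations with other numbers there were -0.05, 0.20 and 0.12. With 3 libraries a group, these values cannot exclude a pairing. With a replicate block 5838 genes were called in fetal liver and 2334 in bone marrow between genotypes. The depth limits Mxra7, Cygb and St6galnac1 in WT, where 4 to 6 of the 6 libraries hold 3 reads or fewer.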
